A study of Mus musculus with 9 samples.

Results

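Imprinted genes outside the H19/Igf2 locus were followed in cells sorted from the skin of newborn mice. The 35 genes were given as a list of symbols. Each matched 1 row, by Ensembl identifier with the version dropped, of the 49672 rows of a gene-level table in TPM, an abundance per transcript length that sums to a fixed total per library. The tissue was epidermis at age P0 (newborn) from the Sox2-GFP strain, a reporter of the transcription factor Sox2, and total RNA was sequenced. GFP-positive cells, labelled Merkel cells, gave 3 libraries. GFP-negative cells positive for SCA1 and CD49F, labelled basal keratinocytes, gave 6. Each of the sample numbers 1 to 3 has a basal pair, called first and second here. All groups carry the reporter, and the labels give no other allele or treatment. What a sample number stands for (animal, litter, pool) and what sets the members of a basal pair apart is not given, so that p-values measure only the spread between these samples, which may be technical.

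Genomic imprinting marks a gene according to the parent it came from, mostly by DNA methylation set in the germ line, so that in many tissues a single parental copy is transcribed. Imprinted genes lie in clusters, each under a control region that is methylated on the maternal or the paternal chromosome, and many of them act in growth, placenta, brain and metabolism. TPM values hold no information on alleles: the copy named below is background, and nothing here measures which copy was read. Fewer cells of a type and less RNA per cell cannot be told apart in sorted pools.

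Markers of the labelled cell types differed in the direction of the library labels, but keratinocyte markers were abundant in all libraries. All 11 Merkel markers on a list that includes Krt8 and Atoh1 were higher in Merkel libraries, where their summed level was 980.0 to 1305 TPM against 2.83 to 6.42 in basal libraries, and 8 of 10 basal keratinocyte markers were lower there. Of the 11, Krt20, Atoh1, Sox2, Isl1, Insm1, Pou4f3, Avil and Chga were under 1 TPM in every basal library. They passed the filter on low values, given below, through their Merkel libraries alone and so had to differ. The cells were also sorted by a reporter of Sox2 itself. The 10 basal markers still summed to 4762 to 5389 TPM in Merkel libraries, against 16276 to 17933 in first and 13517 to 14805 in second basal libraries. The 9 suprabasal keratinocyte markers overlapped between the groups. They summed to 7176 to 11767 TPM in Merkel, 7051 to 11070 in first basal and 7837 to 11424 in second basal libraries. Other cell types differed between the libraries as well. Of 12 fibroblast and dermal papilla markers 9 were tested, 7 higher and 1 lower in Merkel libraries. Among the 7, Col1a1, Pdgfra, Corin and Crabp1 passed the filter through their Merkel libraries alone and so had to differ. All 12 summed to 395 to 402 TPM in Merkel and 497 to 1242 in basal libraries. Without Vim and Postn, left out after their values were seen, the other 10 summed to 93.5 to 109 TPM in Merkel, 3.38 to 5.25 in first basal and 8.92 to 13.8 in second basal libraries, with Twist2 and Mfap5 at 0 in all basal libraries. Sensory neuron markers summed to 22.7 to 36.2 TPM in Merkel and 0.24 to 0.54 in basal libraries. Of these 8 markers 6 were below 1 TPM in all libraries, so the sum came mostly from the 2 tested. Both were called higher, but passed the filter through their Merkel libraries alone and so had to differ. Melanocyte markers summed to 150.4 to 211 TPM in Merkel, 15.8 to 34.3 in first basal and 105 to 152 in second basal libraries, and macrophage and Langerhans cell markers to 47.7 to 131, 674 to 1024 and 43.2 to 243. The part of these cells in the results below was not tested. Between 13012 and 13649 genes reached 1 TPM in a library, and read depth is unknown.

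Of the 35 genes 26 were abundant enough to be tested between Merkel cells and basal keratinocytes, that is, at 1 TPM or more in at least 3 of 6 values (3 Merkel libraries and, for each number, the mean of its basal pair). The call was an adjusted p under 0.05 in limma with a log2 fold change, on the TPM + 1 scale, of 1 or more in size. By this rule 7 genes were higher in Merkel cells: Dio3, Rian and Dlk1 of the Dlk1-Dio3 cluster, Snrpn and Ndn of the Prader-Willi/Angelman cluster, Peg10, and Nnat. They are 20.0% of the 35 genes, and 26.9% of those tested, against 6.79% called higher among all 13822 genes tested. Of the 7, Dlk1, Dio3 and Peg10 passed the filter on low values through their Merkel libraries alone and so had to differ; their calls support nothing by themselves. In limma 0 of the 26 were called lower, against 5.27% of all genes tested. At an unadjusted p under 0.05, and also at an adjusted p under 0.05, 8 were lower: Ube3a, Peg3, Plagl1, Nespas, Kcnq1ot1, Phlda2, Slc22a18 and Impact. These 8 are 30.8% of the genes tested, near the 28.5% of all genes that were lower at that adjusted p and the 34.1% at the unadjusted p. Of the 8, Kcnq1ot1 passed the filter through its basal values alone and so had to differ. The median log2 fold change of the 26 was 0.07, and that of all tested genes -0.15.

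**Figure D1:**
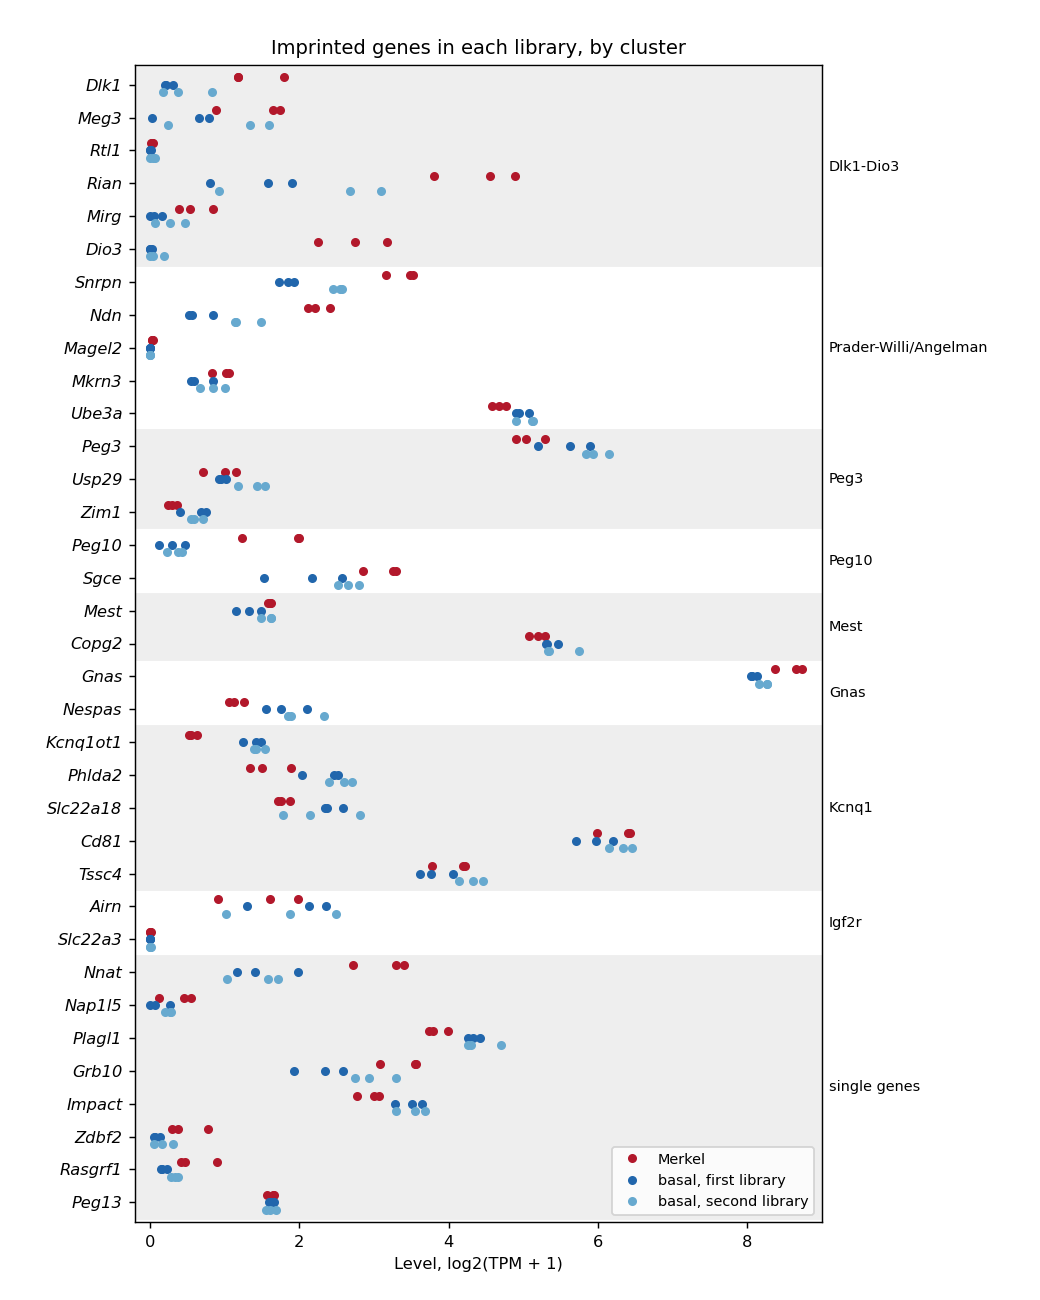
Level of each imprinted gene in each library, as log2(TPM + 1), for Merkel, first basal and second basal libraries, with genes ordered by cluster (shaded bands). Merkel points lie to the right of every basal point for 9 tested genes, among them Dio3, Rian and Nnat, and to the left for 7, among them Kcnq1ot1 and Phlda2. Dlk1, Dio3 and Peg10, all among the 9, passed the filter on low values through their Merkel libraries alone. Kcnq1ot1, among the 7, passed it through its basal values alone.

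Levels spanned several orders of magnitude. Gnas, which encodes the stimulatory G protein alpha subunit, was by far the most abundant, with a mean of 386 ± 50.3 TPM in Merkel against 285 ± 9.53 in basal samples (SD, n = 3). The tetraspanin gene Cd81 followed at 77.0 ± 12.8 and 70.4 ± 9.58 TPM. Copg2, Peg3 and Ube3a stood between 24.6 and 54.9 TPM in either group on average. At the other end, 9 genes were too low to test: Rtl1, Mirg, Magel2, Mkrn3, Zim1, Nap1l5, Slc22a3, Zdbf2 and Rasgrf1. Among these the highest value in any library was 1.08 TPM, of Mkrn3. Every Merkel library lay above every basal library for 9 tested genes (34.6%, against 11.7% of all tested genes) and below for 7 (26.9%, against 26.2%). Dlk1, Dio3 and Peg10 are among the 9. They passed the filter through their Merkel libraries alone, which set their direction, so the 34.6% is not independent of the filter. Kcnq1ot1, among the 7, passed it through its basal values alone, so the 26.9% is not independent of it either.

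The Dlk1-Dio3 cluster on chromosome 12 held the largest differences, though the direction of that of Dio3 was set by the filter. It joins the paternally expressed genes Dlk1, Rtl1 and Dio3 with the maternally expressed noncoding RNAs Meg3, Rian and Mirg, which are often described as parts of a single long transcription unit that also hosts many microRNAs and snoRNAs. The stretches of 250 bases before the RefSeq starts (build GRCm38.p6) of Rian and Dio3 are shown because these 2 genes had the largest fold changes and their stretches differ in CG content. CG dinucleotides are in capitals, and both lie on the plus strand, Rian at chr12:109603695-109603944 and Dio3 at chr12:110278980-110279229.
Rian: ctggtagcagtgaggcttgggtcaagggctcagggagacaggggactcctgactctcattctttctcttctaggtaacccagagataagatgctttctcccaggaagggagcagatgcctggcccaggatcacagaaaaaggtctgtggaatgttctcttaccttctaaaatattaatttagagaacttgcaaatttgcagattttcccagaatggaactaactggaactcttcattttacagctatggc
Dio3: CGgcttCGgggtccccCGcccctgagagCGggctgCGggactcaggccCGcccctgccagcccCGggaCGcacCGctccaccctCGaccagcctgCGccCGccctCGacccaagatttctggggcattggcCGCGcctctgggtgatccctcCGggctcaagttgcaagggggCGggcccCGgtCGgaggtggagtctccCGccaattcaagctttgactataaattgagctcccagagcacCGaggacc
The Rian stretch holds 0 CG dinucleotides and the Dio3 stretch 21, against a median of 6 over 32851 such windows of all genes.

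Dio3 encodes the deiodinase that inactivates thyroid hormone (chromosome 12, 110279068 to 110281097). It was at 8.06, 3.74 and 5.73 TPM in Merkel libraries 1 to 3. In the first basal libraries it was listed at 0, 0 and 0.02 TPM and in the second at 0.03, 0.14 and 0. Its Merkel and basal values were far apart, and the log2 fold change was 2.68 ± 0.22 (SE over 3 and 3 values, limma adjusted p = 2.5e-05). Dio3 passed the filter through its Merkel libraries alone and so had to differ, and this p-value supports nothing by itself.

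Rian, also called Meg8 (109603940 to 109661716), was at 28.5, 13.03 and 22.5 TPM in Merkel libraries 1 to 3. It was at 2.72, 0.75 and 1.98 TPM in the first basal libraries and at 7.58, 0.89 and 5.4 in the second. No basal library reached the lowest Merkel library, and the log2 fold change was 2.59 ± 0.41 (limma adjusted p = 0.0012). With the sample number as a block the same log2 fold change had an adjusted p of 6.7e-08. Meg3, the tumour suppressor RNA read from the same strand upstream, was far lower and overlapped between groups, at 2.12, 0.85 and 2.35 TPM in Merkel, 0.73, 0.02 and 0.57 in first basal and 2.02, 0.18 and 1.53 in second basal libraries. Its log2 fold change of 0.65 ± 0.31 did not pass (adjusted p = 0.12, and 0.0021 with the block). Rian made up 90.5% to 93.9% of the sum of Rian and Meg3 in Merkel libraries, against 77.6% to 97.4% in basal ones, so that the shares overlapped. Mirg was at 0.31 to 0.79 TPM in Merkel and 0 to 0.38 in basal libraries.

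Dlk1, a transmembrane ligand related to the Notch ligands that is known as an inhibitor of fat cell formation (109452823 to 109463336), was at 1.27, 1.26 and 2.48 TPM in Merkel libraries. It was at 0.24, 0.15 and 0.16 TPM in first basal and 0.13, 0.29 and 0.78 in second basal libraries. Its log2 fold change of 1.04 ± 0.19 (adjusted p = 0.0025) lay at the limit, and the call was lost with quantile normalization (0.999), with the second basal set as the only reference (0.93), or when Merkel replicate 3 (0.83) or basal replicate 1 (0.98) was left out. Dlk1 also passed the filter through its Merkel libraries alone and so had to differ. The retrotransposon-derived Rtl1 was at no more than 0.05 TPM anywhere. The annotation places 41 microRNA and snoRNA genes within Meg3, Rtl1, Rian and Mirg, among them 13 snoRNAs within Rian and 15 microRNAs within Mirg, and all 41 were listed at 0 in every library. Whether RNAs this short could be captured and counted here is not known, so these values do not show that they are absent.

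In the Prader-Willi/Angelman cluster on chromosome 7, Snrpn and Ndn, 2 of the 4 paternally expressed members, were called higher in Merkel cells, and the other two, Magel2 and Mkrn3, were too low to test. Snrpn, which encodes an Sm protein of the splicing machinery (59982495 to 60140219), was at 10.2, 7.98 and 10.5 TPM in Merkel libraries 1 to 3. In the first basal libraries it was at 2.32, 2.59 and 2.79 TPM and in the second at 4.93, 4.45 and 4.86. The 3 sets did not overlap, with the second basal libraries in the middle. The log2 fold change against both basal sets averaged was 1.22 ± 0.14 (adjusted p = 2.0e-04), and 0.87 against the second set alone, short of the limit. Snurf, read from the 5′ part of the same unit and overlapping Snrpn on the same strand, was at 14.5 to 17.6 TPM in Merkel libraries and anywhere from 0 to 14.2 in basal libraries. Because reads of Snrpn and Snurf can be divided between them, the values of both are uncertain.

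Ndn encodes necdin, a growth-restraining MAGE family protein of neurons (62346569 to 62350262). It was at 3.64, 3.34 and 4.31 TPM in Merkel libraries, 0.47, 0.44 and 0.80 in first basal and 1.23, 1.21 and 1.80 in second basal libraries. The sets again stood in the order Merkel, second basal, first basal, without overlap, and the log2 fold change was 1.29 ± 0.15 (adjusted p = 2.0e-04). Against the second set alone it was 0.98. Magel2, its neighbour and relative, was at 0.02 to 0.03 TPM in Merkel libraries and listed at 0 in all 6 basal libraries. The ring finger gene Mkrn3 was at 0.78 to 1.08 TPM in Merkel and 0.46 to 1.01 in basal libraries.

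Ube3a, the ubiquitin ligase lost in Angelman syndrome, is read from the maternal copy in neurons and from both copies in most other cells. It was at 24.6, 23.1 and 26.3 TPM in Merkel libraries, 32.9, 29.0 and 29.9 in first basal and 33.8, 34.2 and 28.9 in second basal libraries. All Merkel values were below all basal values, by a log2 fold change of -0.34 ± 0.11 (adjusted p = 0.040). Snhg14, whose far end runs antisense to Ube3a and silences its paternal copy in neurons, averaged 1.37 ± 0.17 TPM in Merkel against 2.49 ± 1.17 in basal samples, a difference that did not pass (log2 fold change -0.49, adjusted p = 0.12). Atp10a, a phospholipid-transporting ATPase gene beside Ube3a, was called lower, at a mean of 1.09 ± 0.25 TPM in Merkel against 5.02 ± 0.85 in basal samples (log2 fold change -1.52, adjusted p = 1.0e-04).

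Peg10 and Sgce lie head to head on chromosome 6 and are both read from the paternal copy. Peg10, a retrotransposon-derived gag-pol gene needed in the placenta (4747306 to 4760517), was at 3.00, 1.34 and 2.96 TPM in Merkel libraries. It was at 0.38, 0.09 and 0.23 TPM in first basal and 0.35, 0.17 and 0.29 in second basal libraries. The log2 fold change was 1.42 ± 0.21 (limma adjusted p = 9.2e-04). Peg10 passed the filter through its Merkel libraries alone and so had to differ, and this p-value supports nothing by itself. Sgce, which encodes epsilon-sarcoglycan, was at 8.56, 6.23 and 8.86 TPM in Merkel, 4.93, 1.87 and 3.49 in first basal and 5.98, 4.75 and 5.26 in second basal libraries. All Merkel values of Sgce were the higher ones, but its log2 fold change of 0.77 ± 0.20 (adjusted p = 0.013) fell short of the limit. It reached 1.05 against the first basal libraries alone. The pair moved unequally: Peg10 made up 17.7% to 26.0% of the summed TPM of both genes in Merkel libraries, against 3.46% to 7.16% in basal ones, without overlap. These shares too rest on a gene that had to differ.

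Nnat, or neuronatin, is a small membrane protein gene of brain and endocrine cells that sits in an intron of Blcap (chromosome 2, 157560078 to 157562522). It was at 8.84, 5.57 and 9.56 TPM in Merkel libraries, 2.94, 1.24 and 1.66 in first basal and 1.98, 2.29 and 1.05 in second basal libraries. Merkel and basal values did not overlap and the 2 basal sets did, with a log2 fold change of 1.66 ± 0.21 (adjusted p = 3.9e-04). Its host Blcap, on the opposite strand, was at 9.83 to 10.7 TPM in Merkel and 11.3 to 14.9 in basal libraries. Nnat was 36.2% to 48.6% of the summed TPM of Nnat and Blcap in Merkel libraries, against 8.47% to 16.5% in basal ones.

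**Figure D2:**
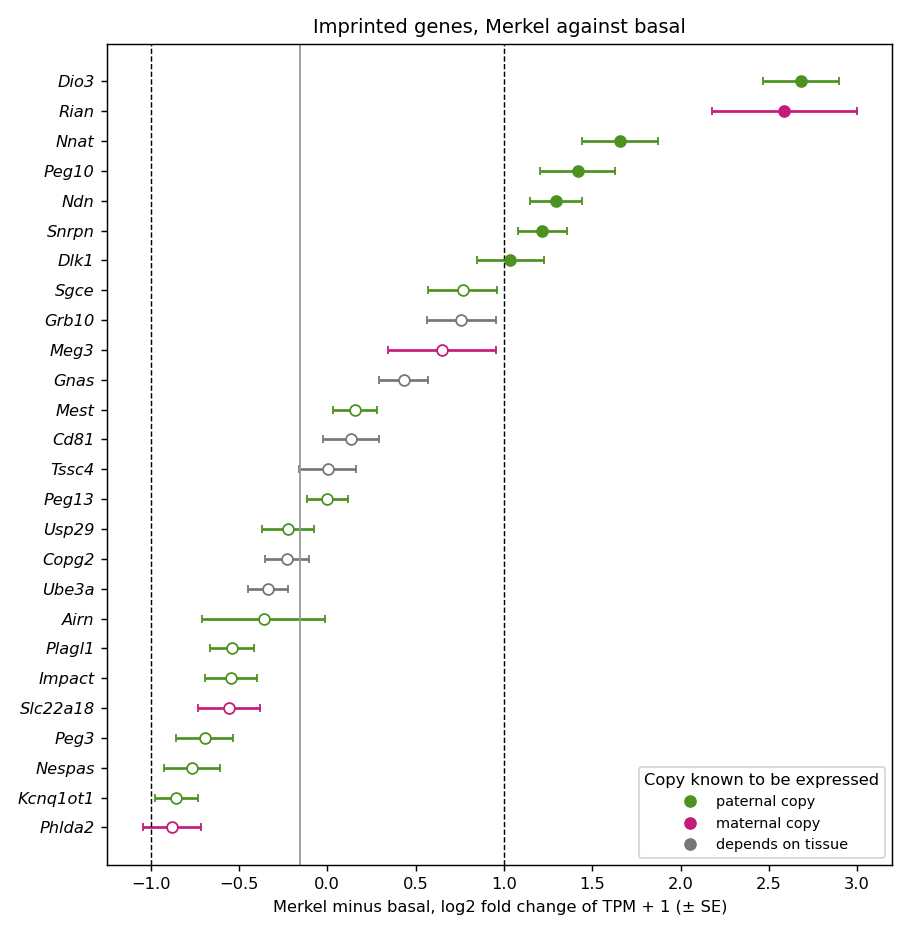
Log2 fold change of TPM + 1, Merkel minus basal, with its SE, for the 26 tested genes, coloured by the parental copy known to be expressed. Filled points passed the call, dashed lines mark 1 and -1, and the grey line is the median of all tested genes, -0.15. The 7 filled points lie between 1.04 and 2.68, and 6 of them are paternally expressed genes. Of these 6, Dlk1, Dio3 and Peg10 passed the filter on low values through their Merkel libraries alone and so had to differ.

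The Kcnq1 cluster on distal chromosome 7 showed lower levels in Merkel cells for several genes. Kcnq1ot1 is a long noncoding RNA, read from the paternal copy within Kcnq1, that silences its neighbours on that chromosome. Its 250 upstream bases (minus strand, chr7:143296548-143296797) are shown because it is the control RNA of the cluster, with CG in capitals.
Kcnq1ot1: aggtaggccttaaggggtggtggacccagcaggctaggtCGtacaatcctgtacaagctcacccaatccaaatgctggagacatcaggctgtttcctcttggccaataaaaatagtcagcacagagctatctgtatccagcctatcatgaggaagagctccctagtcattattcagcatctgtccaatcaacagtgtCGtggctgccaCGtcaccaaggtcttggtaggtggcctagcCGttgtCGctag
The stretch holds 5 CG dinucleotides. Kcnq1ot1 (143203458 to 143296549) was at 0.43, 0.46 and 0.54 TPM in Merkel libraries, 1.81, 1.36 and 1.67 in first basal and 1.91, 1.62 and 1.68 in second basal libraries. All Merkel values were below all basal values, while the 2 basal sets overlapped. Its Merkel values were all under 1 TPM, so Kcnq1ot1 passed the filter through its basal values alone and had to differ. On the TPM + 1 scale, which compresses differences at such levels, the log2 fold change was -0.85 ± 0.12 (adjusted p = 7.0e-04). With a pseudocount of 0.1 TPM it was -1.62 and passed the call. Because the gene had to differ, neither the p-value nor that call supports anything by itself. Kcnq1, the potassium channel gene on the other strand, went the other way, at 0.20 to 0.41 TPM in Merkel and 0 to 0.04 in basal libraries, too low to test.

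Phlda2, a maternally expressed gene known to restrain placental growth, was at 2.71, 1.53 and 1.82 TPM in Merkel libraries, 4.73, 3.10 and 4.52 in first basal and 5.05, 5.54 and 4.28 in second basal libraries. No Merkel value reached the basal ones (log2 fold change -0.88 ± 0.16, adjusted p = 0.0028), and with a pseudocount of 0.1 TPM or without Merkel replicate 1 the value passed the limit (-1.15 and -1.04). The transporter gene Slc22a18 was at 2.28 to 2.68 TPM in Merkel and 2.43 to 6.02 in basal libraries (-0.56 ± 0.17, adjusted p = 0.031). Slc22a18 overlapped between groups, Phlda2 did not. Cd81 was at 83.5, 62.3 and 85.3 TPM in Merkel, 72.6, 51.3 and 61.7 in first basal and 87.0, 70.05 and 80.0 in second basal libraries, and Tssc4 at 17.2, 12.7 and 17.7, at 11.3, 15.7 and 12.6, and at 16.6, 21.1 and 19.1. For both the groups overlapped (log2 fold changes 0.13 ± 0.16 and 0.00 ± 0.16, adjusted p = 0.54 and 1.0), and their sign depended on the basal set.

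Peg3, a paternally expressed zinc finger gene, and Usp29, a ubiquitin protease gene, start from opposite strands of the same short stretch of chromosome 7. The RefSeq starts leave 163 bases between them, at chr7:6730420-6730582, shown on the plus strand with CG in capitals because both genes are read outward from it at very different levels.
Peg3-Usp29: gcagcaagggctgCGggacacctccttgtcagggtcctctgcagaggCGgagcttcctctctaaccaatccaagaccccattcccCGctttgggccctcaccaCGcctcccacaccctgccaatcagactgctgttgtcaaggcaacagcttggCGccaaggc
The stretch holds 5 CG dinucleotides. Peg3 was at 31.9, 28.9 and 38.4 TPM in Merkel libraries, 48.2, 35.7 and 58.3 in first basal and 60.3, 56.6 and 69.98 in second basal libraries. Most Merkel values were below the basal ones, with the first basal library of number 2 inside the Merkel range, and the log2 fold change was -0.69 ± 0.16 (adjusted p = 0.0079). Usp29 was at 0.63 to 1.22 TPM in Merkel and 0.89 to 1.91 in basal libraries (-0.22 ± 0.15, adjusted p = 0.27). It made up 2.13% to 3.69% of the summed TPM of the pair in Merkel and 1.74% to 3.07% in basal libraries. Zim1, the maternally expressed zinc finger gene of the cluster, was at 0.18 to 0.28 TPM in Merkel and 0.32 to 0.68 in basal libraries.

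At the Gnas locus sense and antisense products differed in opposite directions. Gnas, counted as a single gene although its promoters are imprinted differently, was at 403, 329.9 and 426 TPM in Merkel libraries, 279, 266 and 264 in first basal and 308, 308 and 285 in second basal libraries. All Merkel values were the higher ones, by a log2 fold change of 0.43 ± 0.14 (adjusted p = 0.032). Nespas, the paternally expressed antisense RNA, was at 1.08 to 1.39 TPM in Merkel and 1.94 to 4.02 in basal libraries (-0.77 ± 0.16, adjusted p = 0.0049; -1.12 with a pseudocount of 0.1 TPM, which passed the call). The strand setting of the quantification is not given in the sources used here, so reads of overlapping pairs such as this cannot be assigned with certainty. Of the 35 genes 12 overlap another tested gene: Airn, Cd81, Copg2, Gnas, Impact, Mest, Nap1l5, Nespas, Nnat, Peg13, Snrpn and Ube3a.

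None of the remaining genes but Nnat, described above, was called. Mest and Plagl1, a hydrolase-like gene and a zinc finger regulator of other imprinted genes, are controlled by germline methylation at their own promoters. Methylated control regions are recognised by the zinc finger protein ZFP57 at the hexamer TGCCGC. Both upstream stretches hold it and are shown for that reason, with the hexamer or its reverse complement in capitals (for Mest before 1 of its RefSeq starts, chr6:30737800-30738049 and chr10:13090582-13090831).
Mest: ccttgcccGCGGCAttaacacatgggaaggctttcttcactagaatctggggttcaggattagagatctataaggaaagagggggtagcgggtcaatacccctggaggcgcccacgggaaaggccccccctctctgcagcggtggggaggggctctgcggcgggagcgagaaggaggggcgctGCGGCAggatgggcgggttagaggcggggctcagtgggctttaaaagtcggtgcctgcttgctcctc
Plagl1: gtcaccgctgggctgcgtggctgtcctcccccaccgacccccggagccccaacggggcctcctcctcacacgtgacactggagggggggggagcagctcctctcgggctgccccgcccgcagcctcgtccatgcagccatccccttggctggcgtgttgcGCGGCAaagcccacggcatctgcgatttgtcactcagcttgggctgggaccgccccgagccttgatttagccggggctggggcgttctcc
The hexamer, searched on both strands of the 250 upstream bases, was found in 8 of 40 RefSeq windows of the imprinted genes (20.0%), belonging to 7 of the 29 genes with a window, and in 8.68% of 32851 windows of all genes. The hexamer itself holds a CG, and the median was 11 CG dinucleotides in windows of the imprinted genes against 6 in all windows. The 8 windows include overlapping Mest windows, starting at 30737800 and 30737803, that hold the same matches. A match describes the letters only. Mest was at 2.04, 2.07 and 2.00 TPM in Merkel and 1.22 to 2.08 in basal libraries (log2 fold change 0.15 ± 0.12, adjusted p = 0.36). Copg2, which overlaps its 3′ end on the other strand, was at 35.8, 32.8 and 38.3 TPM in Merkel, 38.6, 43.1 and 38.8 in first basal and 39.5, 52.9 and 39.8 in second basal libraries (-0.23 ± 0.13, adjusted p = 0.18). Its Merkel values were all below the basal ones, but the difference did not pass the test.

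Plagl1 was at 15.0, 12.3 and 12.9 TPM in Merkel, 20.5, 18.2 and 19.1 in first basal and 18.7, 25.1 and 18.2 in second basal libraries. The groups were apart (log2 fold change -0.54 ± 0.12, adjusted p = 0.0078), as they were for Impact, a regulator of the integrated stress response, at 7.0, 5.86 and 7.41 TPM in Merkel, 11.5, 8.74 and 10.4 in first basal and 11.8, 8.85 and 10.7 in second basal libraries (-0.54 ± 0.15, adjusted p = 0.016). Grb10, an adaptor that dampens insulin signalling, is read from the maternal copy in most tissues and the paternal copy in neurons. It was at 7.47 to 10.8 TPM in Merkel, 2.80 to 5.02 in first basal and 5.71 to 8.79 in second basal libraries (0.76 ± 0.19, adjusted p = 0.013), and reached 1.11 against the first basal libraries alone. Peg13, a noncoding RNA within Trappc9, was nearly constant, at 1.95 to 2.15 TPM in Merkel and 1.93 to 2.23 in basal libraries (0.00 ± 0.12, adjusted p = 1.0). It lies on the same strand as Trappc9, so reads of Trappc9 may be counted in it. Airn, which silences Igf2r on the paternal chromosome, was at 0.88 to 2.96 TPM in Merkel and 1.02 to 4.62 in basal libraries (-0.36 ± 0.35, adjusted p = 0.45), and Slc22a3 of the same cluster was at no more than 0.01 TPM. Rasgrf1 and Zdbf2 reached 0.87 and 0.72 TPM in Merkel libraries, and Nap1l5 0.46.

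By parental copy, 6 of 22 paternally expressed genes were called higher (16 tested, log2 fold changes -0.85 to 2.68, median 0.08), 1 of 6 maternally expressed genes, Rian (4 tested, -0.88 to 2.59, median 0.05), and 0 of 7 genes whose imprinting depends on the tissue (6 tested, -0.34 to 0.76, median 0.07). Among all tested genes 6.79% were called higher. Of the 6 paternally expressed genes called, Dlk1, Dio3 and Peg10 passed the filter through their Merkel libraries alone and so had to differ. Kcnq1ot1, at the low end of this class with -0.85, passed it through its basal values alone and had to differ too. Each of the first 2 classes held genes at both ends of the range, and no difference between the classes was tested.

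The basal pair of a number offered a reference for differences within cells of the same label. Of 22 imprinted genes tested between second and first basal libraries limma called 0 higher (background 0.675% of 13477 genes) and 0 lower (background 3.67%, or 4.35% in either direction), with 6 at an unadjusted p under 0.05: Snrpn, Ndn, Usp29, Grb10, Cd81 and Tssc4. All 6 were higher in the second libraries (27.3%, against 12.4% of all genes higher at that unadjusted p). Snrpn had the clearest difference, a log2 fold change of 0.69 ± 0.12 (limma adjusted p = 0.014), and was the 1 gene of the 22 with an adjusted p under 0.05 (higher, background 3.37%, and 0 lower, background 4.82%). In 15 of the 22 genes the second library was the higher one in all 3 numbers (68.2%, against 36.5% of all genes tested), and in 0 the lower one (against 20.3%). The median log2 fold change was 0.23 over the 22 genes and 0.06 over all genes. In 6 every second library lay above every first library (27.3%, against 17.3% of all genes tested). Of the 15 genes, Snrpn, Ndn, Rian, Grb10, Sgce, Mest and Gnas were intermediate on average in the second basal libraries, between first basal and Merkel libraries. The others, Peg3, Usp29, Copg2, Nespas, Kcnq1ot1, Cd81, Tssc4 and Impact, had their highest mean in the second basal libraries. Peg3, for example, averaged 47.4, 62.3 and 33.0 TPM in first basal, second basal and Merkel libraries. EGFP, the reporter, was at 1.73 to 3.72 TPM in first basal, 13.4 to 18.3 in second basal and 178 to 247 in Merkel libraries, and the melanocyte markers given above had the same order. For Dio3, Peg10 and Nnat the choice of basal set moved the value less: against the first and the second libraries alone their log2 fold changes were 2.72 and 2.65, 1.44 and 1.40, and 1.62 and 1.70. Nnat averaged 1.95 TPM in the first and 1.77 in the second basal libraries, the reverse of that order.

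**Figure D3:**
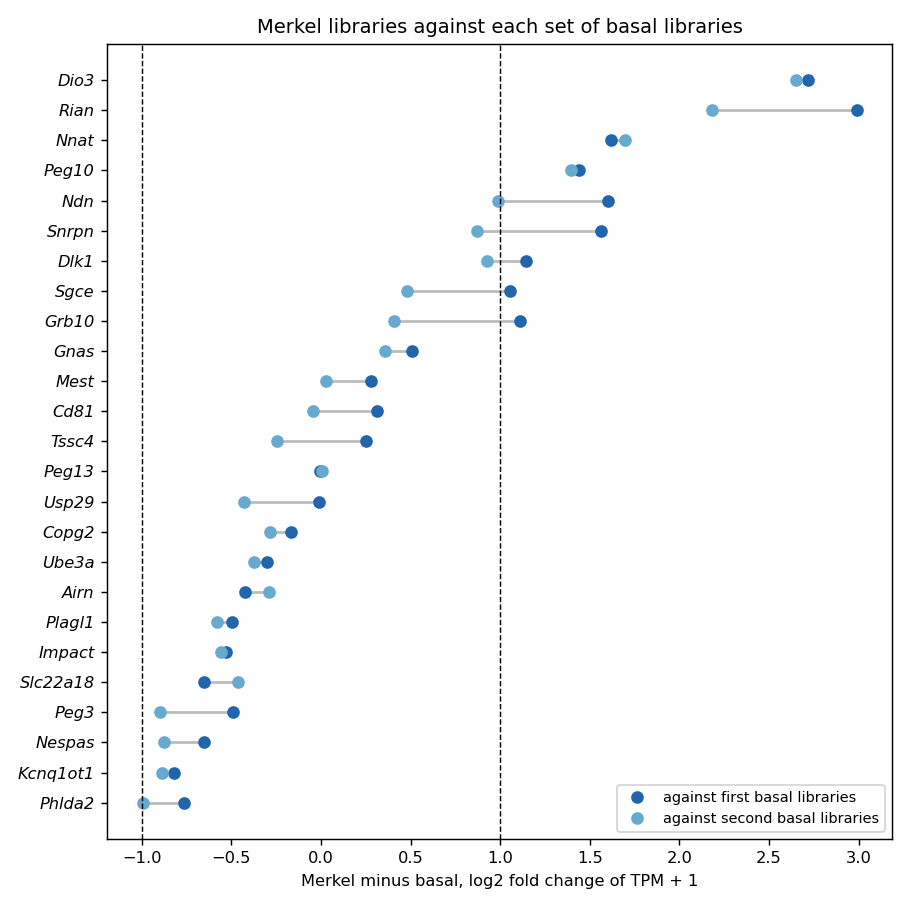
Log2 fold change of TPM + 1, Merkel minus basal, against the first and against the second basal libraries, for the 25 genes tested in both. Dashed lines mark 1 and -1. Both comparisons share the Merkel libraries. Snrpn, Ndn, Dlk1, Sgce and Grb10 lie beyond 1 against the first set and short of it against the second.

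Some genes followed the sample number. Rian, Meg3 and Airn were lowest in number 2 in each of the 3 sets of libraries. For Rian the value of number 2 was 51.1% of the mean of numbers 1 and 3 in Merkel, 31.9% in first basal and 13.7% in second basal libraries. For Meg3 these shares were 38.0%, 3.08% and 10.1%, and for Airn 35.1%, 39.0% and 27.9%. Over all tested imprinted genes 11 were lowest in number 2 in all 3 sets (42.3%, against 21.4% of all genes tested), and Meg3 and Airn were at or under 50% of the mean of the others in all 3 sets, as were 0.572% of all genes. Kcnq1ot1, another long nuclear RNA, was not among the 11, at 0.46, 1.36 and 1.62 TPM in number 2. Other cell types moved with the number as well. The 9 suprabasal keratinocyte markers summed highest in number 2 in each set, to 11767, 11070 and 11424 TPM in its Merkel, first and second basal libraries against 7051 to 9735 in all others. Krt1 in number 2 was at 174%, 155% and 166% of the mean of numbers 1 and 3, and the Langerhans cell gene Cd207 at 758%, 506% and 1996%. The whole list of 7 macrophage and Langerhans cell markers differed less. In numbers 1, 2 and 3 it summed to 47.7, 131 and 126 TPM in Merkel libraries. The first basal libraries had 674, 1024 and 926 TPM, and the second 43.2, 243 and 59.8. Number 2 also had lower erythroid markers, which summed to 37.5 TPM in its Merkel library against 209 and 333 in the other two, and its Merkel library had the largest share of small and mitochondrial RNA (53.4% of TPM, against 40.6% to 46.1% in all other libraries). The part of these cells and of that RNA in the levels was not tested. Without number 2 in both groups, an alternative chosen after seeing the data, the same count of 7 genes was called higher and Rian had a log2 fold change of 2.41 (adjusted p = 1.5e-04).

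**Figure D4:**
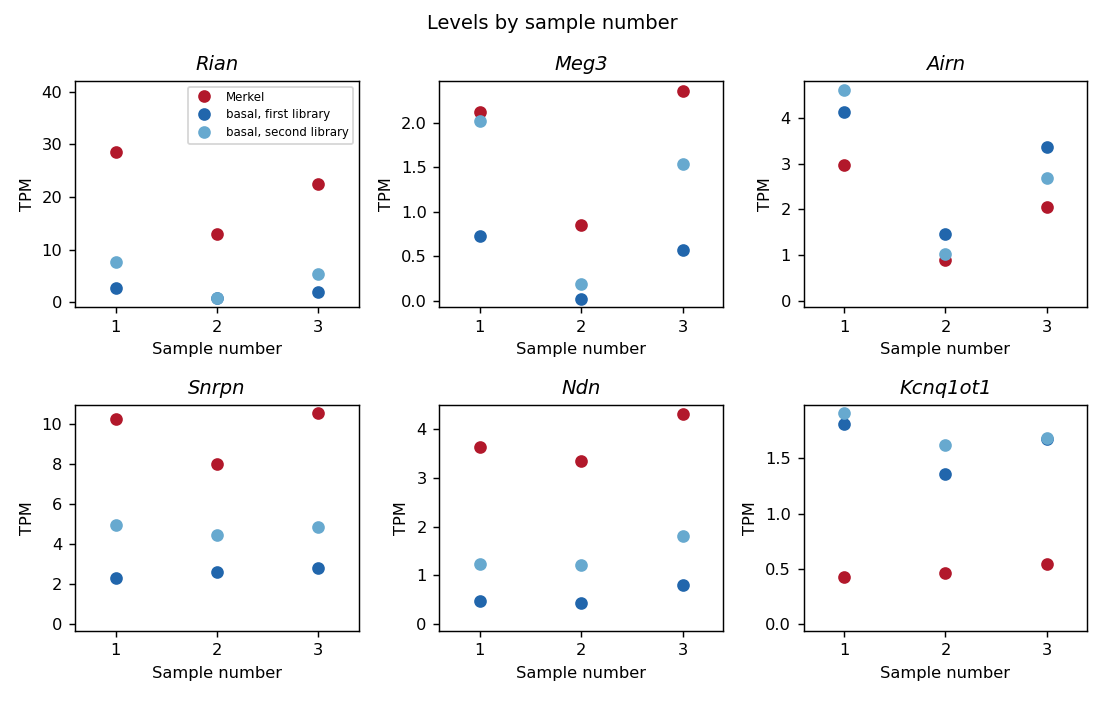
TPM of 6 imprinted genes by sample number in Merkel, first basal and second basal libraries, each vertical axis starting just below 0. Rian, Meg3, Airn and, by less, Ndn are lowest in number 2 in all 3 sets, Snrpn and Kcnq1ot1 are not. All of these genes but Airn keep the order of the sets in every number.

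Genes that keep imprints in place were measured beside them. Of 28 genes for maintaining or resetting imprints 23 were tested, and limma called 0, against 5.27% of all genes called lower and 6.79% called higher. At an unadjusted p under 0.05, 16 were lower (69.6%, against 34.1% of all genes) and 0 higher (against 15.5%). At an adjusted p under 0.05, 14 were lower (60.9%, against 28.5%), and the median log2 fold change was -0.43 against -0.15 for all genes. The methylcytosine dioxygenase Tet3 averaged 19.02 ± 2.55 TPM in Merkel against 37.4 ± 3.29 in basal samples (log2 fold change -0.94, adjusted p = 7.2e-04). The maintenance methyltransferase Dnmt1 had a log2 fold change of -0.56 and its partner Uhrf1 of -0.67 (adjusted p = 0.0063 and 0.0022), and Trim28, the corepressor that ZFP57 recruits, of -0.43 (adjusted p = 0.077). Zfp57 itself was at 0.77 TPM in Merkel and 0.78 and 1.69 TPM in first and second basal libraries on average, too low to test. Of 55 other imprinted genes and cluster neighbours 53 had a row and 36 were tested. Snurf and Smoc1, a calcium-binding matrix protein gene, were called higher (the call of Snurf was lost with no filter, against the second basal libraries alone, or without Merkel replicate 2 or 3), Atp10a was called lower, and the median was -0.07. Those called higher are 5.56% and the 1 called lower 2.78% of the genes tested, below the 6.79% and 5.27% of all genes. Smoc1, at 1.31 to 2.13 TPM in Merkel and 0.11 to 0.43 in basal libraries, passed the filter through its Merkel libraries alone and so had to differ. The growth inhibitor Cdkn1c of the Kcnq1 cluster averaged 18.3 ± 11.3 TPM in Merkel against 8.04 ± 2.50 in basal samples (log2 fold change 0.99, adjusted p = 0.068), and Igf2r, the target of Airn, had a log2 fold change of -0.27 (adjusted p = 0.15).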

How the data were processed

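Total RNA libraries of 3 Merkel and 6 basal samples were made with a stranded kit, per the labels' protocols. Reads were processed with Trimmomatic, STAR and RSEM on mm10, per the submitters' processing notes. The deposited values are TPM per gene, computed by the authors. TPM keeps no depth, so no counting interval is given and low values are the least precise. Symbols and coordinates came from GENCODE M21 (GRCm38, the same build as mm10), which matched 49412 of 49671 identifiers. Promoter sequences are from RefSeq (GRCm38.p6).

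Values were taken as log2(TPM + 1), the basal pair of a number was averaged on that scale, and genes at 1 TPM or more in at least 3 of 6 values were tested with limma 3.58.1 (R 4.3.3, variance trend, two-sided, Benjamini-Hochberg over all tested genes). The number of values asked for was that of the smaller group where a replicate was left out. The fit was tested on simulated data. Means ± SD are over 3 numbers, the basal value being the mean TPM of a pair. Same-numbered samples deviated together (r = 0.39, 0.36 and 0.20 between Merkel and averaged basal values for numbers 1 to 3), so the sample number was also fitted as a block. All genes on the list are named, with each library's values for those called and those at 10 TPM or more. Scaling by median ratios moved the median log2 fold change of all genes from -0.15 to 0.02. Alternatives covered scaling, pseudocount, filter, basal set and left-out replicates. The genes and lists were chosen with earlier results of these data known. Python 3.11.15, pandas 2.3.3 and matplotlib 3.10.9 were used.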

Additional observations from a re-analysis of the deposited data

How the results depend on the processing

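The count of imprinted genes called higher, 7, was 3 with a filter at 5 TPM, where fewer genes were tested, and 4 against the second basal libraries alone but 9 against the first, 6 with quantile normalization, and ran from 6 to 7 with a replicate left out. It stayed 7 with the replicate block, which changed no call of an imprinted gene. The count called lower, 0, was 3 with a pseudocount of 0.1 TPM, 1 with small and mitochondrial RNA genes removed, and 0 to 1 with a replicate left out. The 3 include Kcnq1ot1, which had to differ. Among other imprinted genes and neighbours 2 were called higher, with 4 against the first basal libraries, with small and mitochondrial RNA genes removed or without sample number 2, 1 with a filter at 5 TPM, with no filter or against the second basal libraries, and 1 to 3 with a replicate left out. The 1 called lower became 0 with a filter at 5 TPM. Of imprint maintenance genes 1 was called lower against the second basal libraries and 0 to 2 with a replicate left out. Between second and first basal libraries, 0 to 1 imprinted gene was called higher with a sample number left out (Rian, 1.15 without number 2). Over all genes, 938 called higher became 486 and 729 called lower became 449 with a filter at 5 TPM, and the latter 442 with median-ratio scaling and 1254 with a pseudocount of 0.1 TPM. The causes were not tested.

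Values near 0 changed sign. Against the second basal libraries Cd81 was at -0.045 and Tssc4 at -0.25, and with a replicate left out Tssc4 ran from -0.091 to 0.14 and Peg13 from -0.017 to 0.031. Peg13 was at -0.0035 against the first basal libraries and -0.052 with quantile normalization. Between second and first basal libraries, the values with a sample number left out ran from -0.0026 to 0.13 for Ube3a, -0.39 to 0.089 for Nnat, -0.094 to 0.19 for Plagl1, -0.40 to 0.0018 for Slc22a18 and -0.062 to 0.021 for Peg13, with Impact at -0.029 with median-ratio scaling and Peg13 at 0.077 with quantile normalization. None of these passed a call.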
